A study of Mus musculus with 9 samples.

Results

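The 10 genes described here, whose proteins mark the surface of mesenchymal stromal cells, were read in primary cultures of mouse stromal vascular fraction (SVF), the cells left when fat is digested and its adipocytes are removed. They are Thy1, Nt5e, Eng, Pdgfra, Pdgfrb, Cd34, Cd44, Vcam1, Alcam and Mcam, chosen by name with earlier results of these data known. Each has a single transcript cluster, the array's unit for a gene, so they are 10 of 33323 clusters and 10 of the 19938 genes with a cluster of their own symbol. SVF came from subcutaneous fat of C57BL6/J mice aged 10 weeks and was kept as a primary culture on uncoated plastic in minimal medium with serum, with no inducing agent. On day 28 contracting colonies were picked by hand as the beating group (n = 4), each sample joining several dishes of a single SVF lot, and the rest of the cells of the dish formed the non-beating group (n = 4). A pool of 6 round cells was picked on day 14 (n = 1). The colonies were picked by eye, so the beating samples can hold other cells, and the non-beating group holds every other cell type of the dish. The labels number the samples but do not say whether they came from separate mice, so p-values measure only the spread between these samples.

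Mesenchymal stromal cells have no single defining gene and are recognised by a panel of surface proteins. Thy1 (CD90), Nt5e (CD73) and Eng (CD105) form the minimal positive panel used for human cells, while Cd34 and the platelet-derived growth factor (PDGF) receptors are widely used for stromal progenitors of mouse fat. Cd44, Vcam1, Alcam and Mcam encode adhesion proteins, and several of the 10 are shared with other cells: Eng, Cd34 and Mcam with endothelium, Mcam and Pdgfrb with pericytes, Cd44 with leukocytes and Thy1 with T cells.

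Of the 10 genes, Thy1, Pdgfra and Vcam1 were lower in the beating group, none was higher and 7 did not pass the test (limma, with p adjusted by Benjamini-Hochberg across the whole array and called under 0.05). Over all 33323 clusters 3.34% were called lower and 2.82% higher. Among the 19938 genes these shares were 4.11% and 2.84%, and among the 19123 clusters above a background level 5.76% were called lower. That level was the 95th percentile of 1210 clusters of olfactory and vomeronasal receptor genes on each array, from 2.78 to 2.91 on the log2 scale in the 8 samples of day 28 and 4.15 in the round pool. The median difference, beating minus non-beating, was -0.64 over the 10 genes and 0.01 over all clusters (log2 signal). Array medians were 3.12 to 3.17 in the beating and 3.08 to 3.09 in the non-beating group, so they separated by group. The 8 arrays of day 28 were compared as deposited. Contractile muscle genes, which include genes of skeletal muscle, had a mean level of 8.83 to 9.17 in the beating and 3.37 to 3.65 in the non-beating samples. In all, 940 clusters were higher and 1114 lower, or 837 and 1617 when each array was centred on its median and 1077 and 1528 when clusters under the background level were left out.

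**Figure D1:**
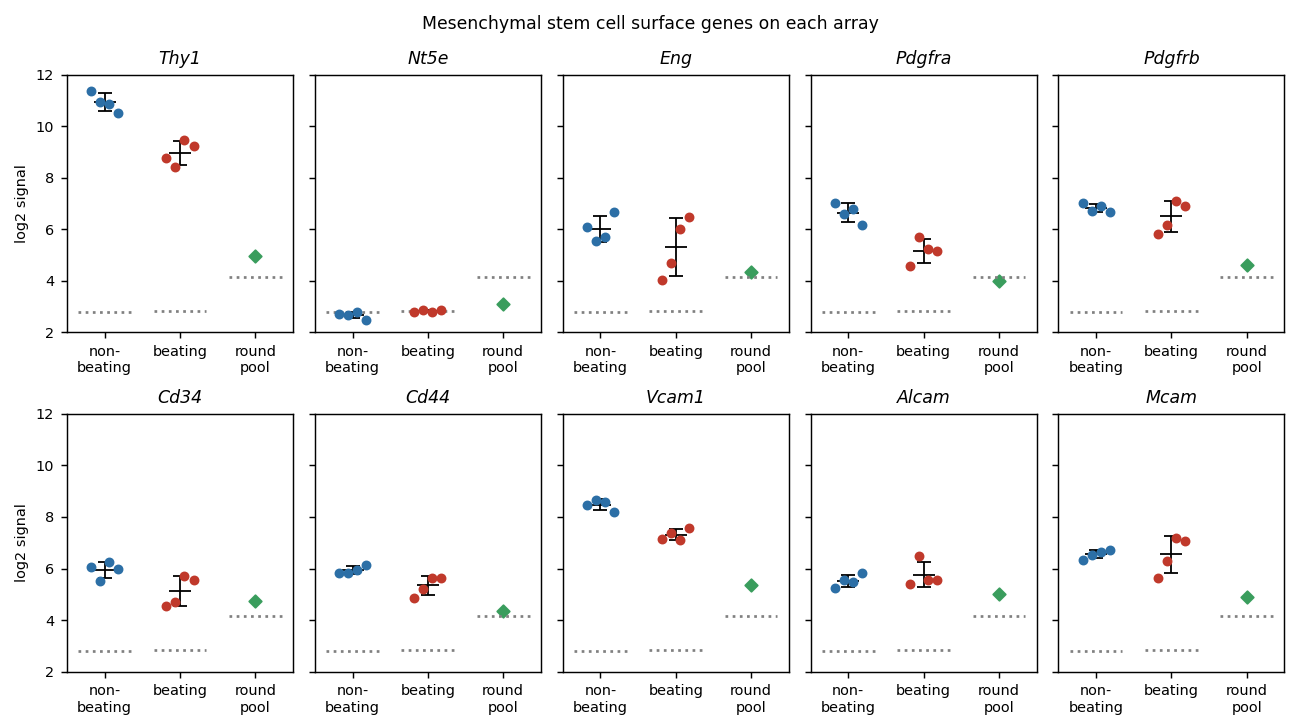
Log2 signal of the 10 genes (vertical axis) in the non-beating group (blue, n = 4), the beating group (red, n = 4) and the round pool (green, 1 array). Points are arrays, black marks are the mean and SD, and dotted lines are the receptor background level. In Thy1, Pdgfra and Vcam1 every beating array lies under every non-beating array, and Nt5e lies at the background level in both groups.

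Thy1 encodes a small glycoprotein anchored on the outside of the cell membrane by a lipid tail (Entrez Gene 21838, chr9:44043384-44048579 on GRCm38). Its log2 signal was 8.78, 8.40, 9.45 and 9.23 in beating replicates 1 to 4 and 11.37, 10.95, 10.87 and 10.51 in non-beating replicates 1 to 4. No beating sample reached the range of the non-beating samples. The means were 8.96 ± 0.469 and 10.92 ± 0.354 (SD, n = 4 each), a 3.88-fold lower signal in the beating group, with a difference of -1.96 (95% interval -2.55 to -1.36, limma adjusted p = 0.00496). Thy1 signal thus fell without reaching background, since the beating mean stood far above the receptor level. Signals hold background, so a fold here is not one of transcript amounts. In samples of mixed cells such as these, fewer cells that express a gene and less RNA of it per cell cannot be told apart.

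Nt5e, the enzyme that makes adenosine from AMP at the cell surface (Entrez Gene 23959, chr9:88327609-88372089), was the only member whose mean over the 8 arrays was not above background. Its signal was 2.80, 2.85, 2.80 and 2.85 in the beating and 2.72, 2.69, 2.78 and 2.49 in the non-beating samples, above the receptor level on 2 of 4 beating arrays and 0 of 4 non-beating arrays. The groups did not overlap, by a difference of 0.15 (95% interval -0.02 to 0.32, adjusted p = 0.288). The array therefore gives no measured level of this marker in the non-beating group. Over all clusters, 5.98% had beating values that all lay above the non-beating values.

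Eng, a co-receptor for TGF-beta family ligands (Entrez Gene 13805, chr2:32646595-32682669), varied more within the beating group than any other member. It was at 4.05, 4.70, 6.0 and 6.49 in beating replicates 1 to 4 and at 6.10, 5.53, 5.71 and 6.66 in non-beating replicates 1 to 4. Beating replicates 1 and 2 lay under all non-beating samples, and replicates 3 and 4 lay among them. The difference of -0.69 had a 95% interval of -1.93 to 0.55 (adjusted p = 0.533), which takes in both a fall as large as that of Pdgfra and no fall. Thus, of the minimal panel, Thy1 passed the test, Eng did not and Nt5e was at the background level.

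Pdgfra and Pdgfrb encode the paired receptor tyrosine kinases of the PDGF pathway, which stromal and mural cells use to respond to PDGF ligands. Pdgfra (Entrez Gene 18595, chr5:75151322-75198206) was at 4.57, 5.68, 5.24 and 5.14 in the beating samples and at 7.02, 6.59, 6.79 and 6.16 in the non-beating samples. Here too the groups did not overlap. Its means of 5.16 ± 0.457 and 6.64 ± 0.365 differed by -1.48, a 2.80-fold lower signal (95% interval -2.08 to -0.89, adjusted p = 0.0156). This call was lost without non-beating replicate 2 (adjusted p = 0.0511) or non-beating replicate 3 (adjusted p = 0.0557), and under the methods' univariate test (adjusted p = 0.0664), which called 1.13% of all clusters lower. It was also lost with the replicate number as a block in limma. Pdgfrb was at 5.83, 6.18, 7.08 and 6.91 in the beating samples and at 7.02, 6.69, 6.90 and 6.67 in the non-beating samples. As with Eng, beating replicates 1 and 2 were lowest, and the difference of -0.32 (95% interval -0.95 to 0.30) did not pass the test (adjusted p = 0.571).

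Cd34, a sialomucin of progenitor and endothelial cells (Entrez Gene 12490, chr1:194938821-194961292), was at 4.54, 4.71, 5.72 and 5.56 in the beating and 6.07, 5.51, 6.24 and 5.99 in the non-beating samples. Beating replicates 3 and 4 overlapped non-beating replicate 2. The difference was -0.82 (95% interval -1.49 to -0.14, adjusted p = 0.159).

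Vcam1 was the adhesion gene that passed the test, with a lower signal in the beating group. It encodes an immunoglobulin-like protein that binds integrin alpha4 beta1 (Entrez Gene 22329, chr3:116110020-116129688). Its signal was 7.16, 7.39, 7.11 and 7.58 in the beating and 8.48, 8.66, 8.58 and 8.18 in the non-beating samples, and both groups were tight, with an SD of 0.218 and 0.210. The difference of -1.16, or 2.24-fold lower, had a 95% interval of -1.48 to -0.84 and the lowest adjusted p of the 10 genes (0.00309).

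Cd44, the main hyaluronan receptor (Entrez Gene 12505, chr2:102811141-102901669), was at 4.87, 5.21, 5.65 and 5.64 in the beating and 5.83, 5.84, 5.94 and 6.14 in the non-beating samples. Every beating value lay under every non-beating value, but the difference of -0.60 (95% interval -1.01 to -0.18) did not pass the test (adjusted p = 0.102). With Thy1, Pdgfra and Vcam1, 4 of the 10 genes had beating values wholly under the non-beating values, against 8.24% of all clusters.

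Alcam, the ligand of CD6 (Entrez Gene 11658, chr16:52248996-52453081), was at 5.41, 6.49, 5.57 and 5.57 in the beating and 5.26, 5.57, 5.48 and 5.81 in the non-beating samples. Its difference of 0.23 (95% interval -0.32 to 0.78, adjusted p = 0.653) came from beating replicate 2 and was -0.01 without it. Mcam (CD146), an adhesion protein of endothelium and pericytes (Entrez Gene 84004, chr9:44134658-44142727), was at 5.65, 6.28, 7.20 and 7.07 in the beating and 6.34, 6.54, 6.63 and 6.72 in the non-beating samples. The beating values surrounded the non-beating ones, with a difference of -0.01 (95% interval -0.76 to 0.74, adjusted p = 0.992).

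**Figure D2:**
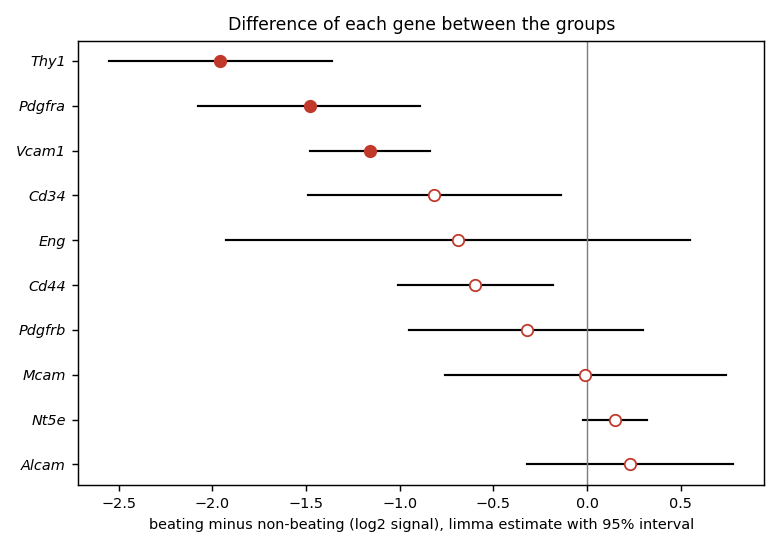
Difference between the group means of each gene (horizontal axis, log2 signal, beating minus non-beating; n = 4 each) with its 95% limma interval. Filled points passed the test. Thy1, Pdgfra and Vcam1 lie at -1.96, -1.48 and -1.16, and the interval of Eng is the widest.

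Whether pairs of these genes changed unequally was tested on the ratio of their signals within each array, for 4 pairs. Each pair set a called gene over a gene that was not called, on the same arrays. A lower ratio therefore partly restates those calls and is not independent of them. The ratio of Vcam1 to Alcam was lower by 1.39 on the log2 scale and that of Thy1 to Nt5e by 2.11, with no overlap between the groups (exact two-sided permutation test over 70 splits, p = 0.0286 each, the smallest p the design allows). For Thy1 over Eng the difference was -1.27 and for Pdgfra over Pdgfrb -1.16 (exact permutation p = 0.0571 each). None of the 4 passed after Benjamini-Hochberg adjustment (adjusted p = 0.0571 for each). Since Nt5e was at background, the first ratio in Thy1 follows Thy1 alone. Pdgfra over Pdgfrb was -1.25, -0.50, -1.84 and -1.77 in the beating samples and 0.00, -0.11, -0.11 and -0.51 in the non-beating samples, so that beating replicate 2 met non-beating replicate 4. After quantile normalisation of the 8 arrays the ratios of Thy1 to Nt5e, Pdgfra to Pdgfrb and Vcam1 to Alcam passed (adjusted p = 0.0381 each). All of these then had the smallest p the design allows. Their adjusted p is set by how many ratios reach it, so Thy1 to Nt5e and Vcam1 to Alcam passed once Pdgfra to Pdgfrb reached it too.

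The spread within the beating group differed between the 10 genes. The range across the 4 beating samples was 2.44 on the log2 scale for Eng, 1.55 for Mcam, 1.25 for Pdgfrb, 1.18 for Cd34, 1.11 for Pdgfra, 1.07 for Alcam, 1.05 for Thy1, 0.78 for Cd44, 0.47 for Vcam1 and 0.06 for Nt5e. It was wider than in the non-beating samples in 8 of the 10, all but Vcam1 and Nt5e. Replicates 1 and 2 were the lowest beating samples in 6 of the 10, namely Thy1, Eng, Pdgfrb, Cd34, Cd44 and Mcam, while replicate 2 was the highest for Pdgfra and Alcam.

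Arrays 1 and 2 of the beating group also had the lowest weights when limma estimated array quality, 0.422 and 0.622, against 1.07 to 1.81 for the other 6. Leaving both out was chosen after these values were seen, so that differences of genes that were low there had to move upward. Thy1, Pdgfra and Vcam1 still passed the test without them, at -1.58, -1.45 and -1.13 (adjusted p = 0.0241, 0.0310 and 0.0318). Cd34 and Cd44 were at -0.31 and -0.29, Nt5e at 0.15 and Alcam at 0.04, and Pdgfrb, Eng and Mcam changed sign to 0.17, 0.24 and 0.58. None of these 7 passed the test (adjusted p from 0.0596 for Mcam to 0.923 for Alcam).

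Marker lists of other cells differed between the same arrays. The mean level of 12 endothelial markers was 3.56, 4.24, 4.75 and 4.97 in beating replicates 1 to 4 and 4.16 to 4.97 in the non-beating samples. Cdh5, the cadherin of endothelial junctions, was at 4.15, 6.98, 7.76 and 8.37 in beating replicates 1 to 4. Its non-beating values were 7.22, 6.61, 7.34 and 8.10. Not every marker of the list rose in this order. Emcn was at 4.92, 9.26, 8.07 and 8.70 in beating replicates 1 to 4, highest in replicate 2. None of the 12 endothelial markers passed the test by limma, and 0 had an unadjusted p under 0.05. The 14 fibroblast matrix genes had mean levels of 7.31, 7.35, 7.71 and 7.90 in the beating and 7.74 to 8.22 in the non-beating samples. For 16 macrophage markers the levels were 3.26, 4.02, 4.25 and 5.15 against 5.20 to 6.65. The part of these cells in the values of the 10 genes was not tested. Of 8 T and B cell markers, 5 were not above the receptor level, Cd3d, Cd4, Cd79a, Cd79b and Ms4a1. By their mean over the 8 arrays Cd3e, Cd8a and Cd3g were above it. Cd3e was at 3.18 in the beating and 3.26 in the non-beating group, and Cd8a at 3.09 and 3.08. Cd3g was at 4.78 and 2.77 (limma adjusted p = 0.067).

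**Figure D3:**
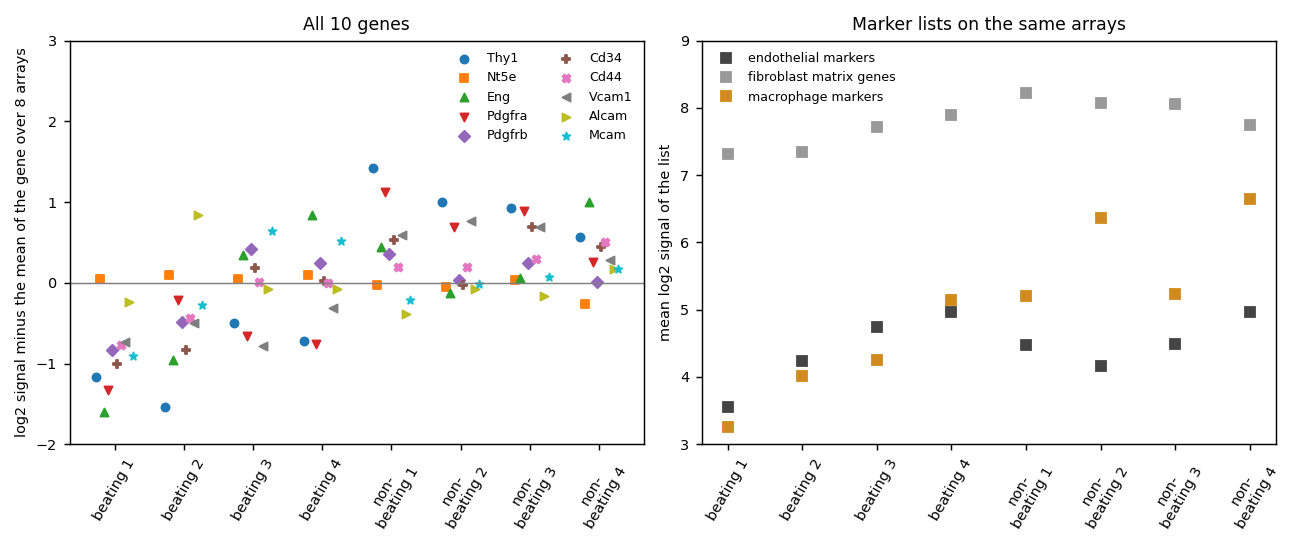
Left, log2 signal of each of the 10 genes minus its mean over the 8 arrays of day 28, by array. Right, mean log2 signal of 3 marker lists on the same arrays. Replicates 1 and 2 are the lowest beating samples for 6 of the 10 genes, replicate 2 is the highest for Pdgfra and Alcam, and the endothelial list is at 3.56 and 4.24 in replicates 1 and 2.

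Ligands, binding partners and co-receptors of the 10 proteins were read from a list of 30 genes, of which 25 were measured. Itga4, Tgfb2 and Tgfb3 were higher in the beating group, Pdgfd and Tgfbr3 were lower and the other 20 were not called, with a median difference of -0.24 over the list. Itga4, the alpha4 chain of the integrin that binds Vcam1, was 6.71-fold higher, at 6.68 ± 0.447 against 3.94 ± 0.532 (SD, n = 4 each, adjusted p = 0.00208). The receptor chain was higher and its ligand lower in the same samples. Whether they changed in the same cells was not tested. Itgb1, the partner chain, was at 10.43 and 10.53 (difference -0.10, 95% interval -0.37 to 0.17, adjusted p = 0.701). Pdgfd, which signals mainly through Pdgfrb, was 2.46-fold lower, at 5.59 ± 0.151 against 6.89 ± 0.238 (adjusted p = 0.00124). Pdgfa, a ligand of Pdgfra, was at 4.27 and 4.50 (adjusted p = 0.235).

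In the TGF-beta pathway, where Eng and Tgfbr3 serve as co-receptors, Tgfbr3 (betaglycan) was 3.13-fold lower, at 6.20 ± 0.438 against 7.85 ± 0.341 (adjusted p = 0.00835). Tgfb3 was 1.62-fold higher (adjusted p = 0.00501) and Tgfb2 1.79-fold higher (adjusted p = 0.0418). The call of Tgfb2 did not survive the removal of any array except beating replicate 3 (7 of 8 removals, adjusted p reaching 0.113). Has2, which makes the hyaluronan bound by Cd44, was at 6.04 and 6.72 (adjusted p = 0.110). Lama4, a laminin chain bound by Mcam, was at 6.99 and 8.09 (adjusted p = 0.120). Cd6, the receptor of Alcam, was above the receptor level on 0 arrays of either group.

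Genes with the most similar profile over the 8 arrays were found for the 3 called members by the root mean square (RMS) difference between values centred on each gene's mean. Nearest to Vcam1 were Dcn, the collagen-binding proteoglycan decorin (RMS difference 0.0954 on the log2 scale), Pygl, liver glycogen phosphorylase (0.138), and Golph3l (0.153). Nearest to Thy1 were Lbp, the lipopolysaccharide-binding protein (0.190), the chemokine Ccl9 (0.215) and Tgfbr3 (0.228). Nearest to Pdgfra were Pde1a, a cyclic nucleotide phosphodiesterase (0.224), Arhgap20 (0.234) and the sodium channel gene Scn7a (0.242). All 9 neighbours were lower in the beating group, from -1.04 for Golph3l to -1.89 for Ccl9, which their selection by profile brings about.

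The promoter sequences of 7 of the 10 genes were at hand from RefSeq (GRCm38.p6), without Thy1, Vcam1 and Pdgfrb. Of these, 4 are shown over the 250 bases before the listed start, read 5′ to 3′ on the gene's strand: Pdgfra and Cd34, with negative differences, and Alcam and Mcam, with differences near 0. Capitals mark a GC box (GGGCGG) or a CCAAT box (CCAAT) on either strand.
Pdgfra: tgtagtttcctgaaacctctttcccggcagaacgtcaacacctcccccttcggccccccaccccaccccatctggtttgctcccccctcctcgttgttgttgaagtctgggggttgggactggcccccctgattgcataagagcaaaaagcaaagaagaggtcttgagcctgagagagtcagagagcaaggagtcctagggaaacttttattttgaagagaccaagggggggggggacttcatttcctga
Cd34: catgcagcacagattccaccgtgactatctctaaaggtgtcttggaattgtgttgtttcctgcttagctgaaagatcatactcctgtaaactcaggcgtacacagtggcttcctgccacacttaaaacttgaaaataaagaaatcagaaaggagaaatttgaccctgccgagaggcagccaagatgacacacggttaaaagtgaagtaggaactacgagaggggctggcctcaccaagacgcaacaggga
Alcam: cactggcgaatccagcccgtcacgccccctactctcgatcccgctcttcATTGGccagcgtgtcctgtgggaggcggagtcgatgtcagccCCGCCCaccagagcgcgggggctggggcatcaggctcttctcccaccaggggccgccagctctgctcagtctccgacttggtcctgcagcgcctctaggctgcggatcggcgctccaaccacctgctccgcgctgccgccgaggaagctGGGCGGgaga
Mcam: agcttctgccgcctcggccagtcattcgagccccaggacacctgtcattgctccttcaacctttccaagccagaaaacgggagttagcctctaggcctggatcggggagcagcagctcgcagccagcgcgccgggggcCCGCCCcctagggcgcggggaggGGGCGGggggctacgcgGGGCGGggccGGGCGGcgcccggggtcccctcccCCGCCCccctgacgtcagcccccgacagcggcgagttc
The windows are chr5:75152001-75152250 (+), chr1:194938571-194938820 (+), chr16:52453082-52453331 (-) and chr9:44134408-44134657 (+). That of Pdgfra lies within the annotated gene, downstream of its outermost start. It holds no GC box, and neither do those of Cd34, Eng and Cd44. Mcam has 5, Nt5e 4 and Alcam 2, and 32.7% of all 32851 promoter windows of this length hold at least 1. GC content was 54.4% for Pdgfra, 46.4% for Cd34, 62.4% for Eng and 56.4% for Cd44, against 73.6% for Mcam, 72.0% for Nt5e and 69.2% for Alcam (median of all windows 52.4%). A CCAAT box was found in Alcam alone (33.8% of all windows). No TATA box (TATAAA, 12.4% of all windows) and no E box of the form CAGCTG (13.0%) was found in any of the 7. Of the 7, only Pdgfra was called between the groups. Whether these sequences bear on the differences between the groups was not tested.

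Other stromal genes were set beside the surface genes. Of 21 genes of stroma and adipose progenitors, Anpep, F3, Prrx1 and Twist1 were lower, none was higher and 17 did not pass the test (median difference -0.49). Anpep (CD13), a surface peptidase of stromal cells, was 3.49-fold lower, at 5.66 ± 0.539 against 7.46 ± 0.327 (SD, n = 4 each, adjusted p = 0.00947). F3, tissue factor, was 2.24-fold lower, at 7.63 ± 0.146 against 8.79 ± 0.160 (adjusted p = 0.000652). Prrx1 and Twist1, transcription factors of mesenchyme, differed by -1.06 and -0.74 (adjusted p = 0.0406 and 0.0480), and 6 and 7 of the 8 single-array removals ended these calls (adjusted p reaching 0.109 and 0.111).

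Of the 14 fibroblast matrix genes, only Dcn and Mfap5 passed the test, both lower (median difference -0.35). Dcn differed by -1.17 (adjusted p = 0.00352), and Mfap5 by -0.99 (adjusted p = 0.0456, lost in 6 of 8 single-array removals, reaching 0.127). Among 8 adipocyte markers Lpl, Adipoq and Pparg were lower, by -2.13, -1.95 and -0.79 (adjusted p = 0.000286, 0.0211 and 0.0246). Removing single arrays ended the calls of Adipoq and Pparg in 3 and 4 of 8 cases (adjusted p reaching 0.0686 and 0.0634). All 16 macrophage markers had negative differences (median -1.62), but by limma only Mpeg1 passed, at -2.43 (adjusted p = 0.0496, lost in 7 of 8 single-array removals, reaching 0.138), and 13 had an unadjusted p under 0.05. Between 0 and 6 macrophage markers passed when a single array was removed. Of 4 Schwann cell genes measured, Pmp22, which stromal cells also express, was lower by -1.49 (adjusted p = 0.00151).

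Genes of muscle moved the other way. Of 12 contractile genes 11 were higher, such as Actc1, Neb, Myh3 and Smpx, with differences of 6.46, 6.88, 6.83 and 7.29 (adjusted p = 1.26e-06, 2.04e-07, 1.73e-08 and 4.60e-07). Of 8 myoblast and satellite cell markers Myog, Myod1, Itga7 and Cdh15 were higher, by 3.83, 2.40, 1.67 and 0.77 (adjusted p = 2.72e-05, 4.57e-05, 0.00137 and 0.0251), and the call of Cdh15 was lost in 7 of 8 single-array removals (reaching 0.0727). Among 11 pericyte and smooth muscle genes, Abcc9 and Mustn1, which striated muscle also expresses, were higher by 1.60 and 1.94 (adjusted p = 0.00153 and 0.00445), and 9 did not pass the test.

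**Figure D4:**
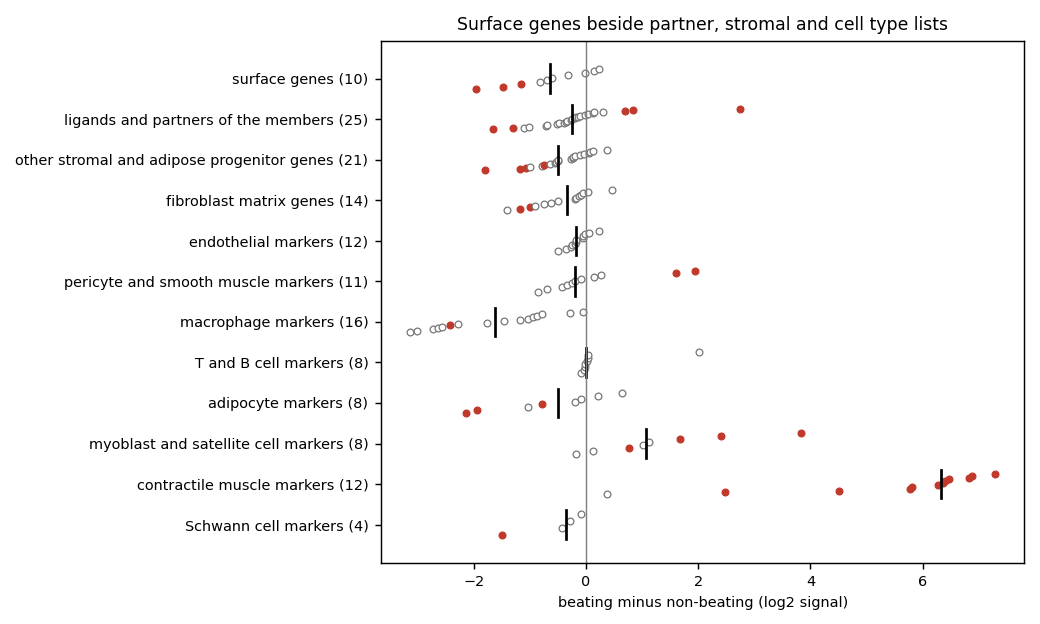
Difference of each gene between the groups (horizontal axis, log2 signal, beating minus non-beating) by list, with the number measured in parentheses. Filled points passed the test and black bars are list medians, which run from -1.62 for the macrophage list to 6.32 for the contractile list and lie at -0.64 for the surface genes.

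The round pool was described without a test, since it is a single array of amplified RNA from 6 cells and also differs in day. Its array median was 3.54 and its receptor background 4.15, higher than in the other samples. Thy1 was at 4.96 in the round cells, a difference of -5.96 to non-beating and of -4.01 to beating samples (means), with all 8 other arrays above it. Vcam1 was at 5.35, -3.12 and -1.96 from the same means, and Pdgfra at 4.00, not above the receptor level of that array. Pdgfrb, Mcam and Cd44 were at 4.62, 4.91 and 4.35, each under all 8 other arrays. Cd34 was at 4.74 and Eng at 4.34, within the range of the beating samples. Alcam was at 5.00, -0.53 from the non-beating mean and under all 8 arrays, and Nt5e at 3.11, not above background.

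In all, 8 of the 10 genes were at least 2-fold under the non-beating mean in the round pool, against 16.6% of all clusters, and 7 were under all 8 other arrays, against 24.4%. The level of a gene bears on this share: in the 8331 brightest clusters by non-beating mean, which hold 9 of the 10 genes, 59.5% were at least 2-fold lower, with a median of -1.33. After quantile normalisation of the 9 arrays 6 genes stayed at least 2-fold under the non-beating mean (14.2% of all clusters), and 6 were under all 8 arrays (29.2%). The median of the brightest clusters was then -0.67. Their shares were not computed after this normalisation, nor for values under all 8 arrays as deposited. Thy1 was then -5.23 and Vcam1 -2.13 from the non-beating mean, while Alcam turned to 0.26 above the non-beating mean and Cd34 to 0.21 above the beating mean. The contractile list had a mean level of 8.90 in the pool, within the beating range, and the fibroblast matrix list 4.62, under all other samples. The part of cell number, day and amplification in these values cannot be told apart.

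**Figure D5:**
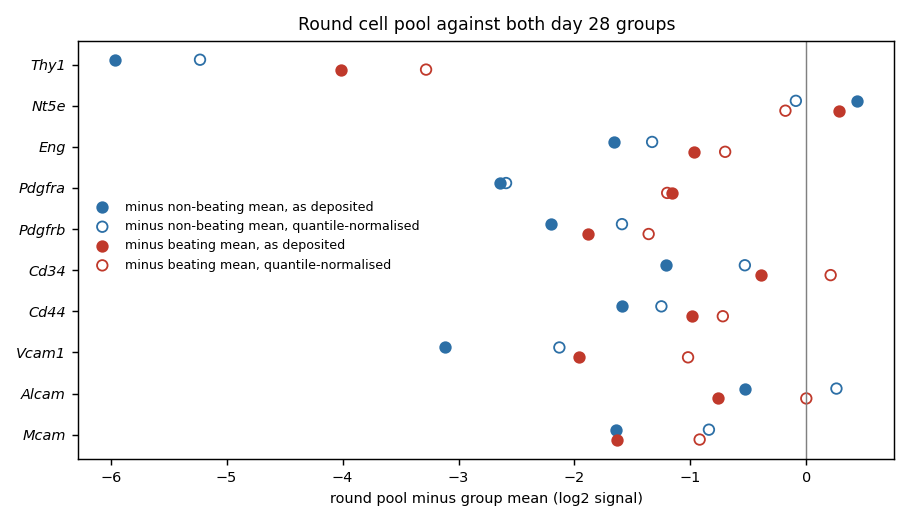
Log2 signal of the round pool (1 array) minus the mean of the non-beating (blue) and beating (red) groups (n = 4 each) for each gene. Filled points are values as deposited and open points follow quantile normalisation of the 9 arrays. Thy1 lies furthest to the left, at -5.96 and -4.01.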

How the data were processed

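The deposited values are log2 signals of Affymetrix Mouse Gene 1.0 ST arrays, 1 column per sample. Per the paper's methods, RNA was amplified (Ovation Pico RNA WTA) and raw data were imported into BRB-ArrayTools, log2-scaled, normalised and centred. How the authors made the deposited table is not given in the sources used here; it is not centred per gene. Values were used as deposited.

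The GEO platform annotation gave 21789 of 33323 clusters a single symbol, 1621 several and 9913 none; 21698 of the single symbols were matched by Entrez ID to RefSeq (GRCm38.p6), whose current symbol was used, and a gene with several clusters was read from the one with the highest mean over the 8 arrays. For the comparison of the day 28 groups, limma 3.58.1 (R 4.3.3) was fitted to every cluster with lmFit and eBayes, and two-sided p-values were adjusted by Benjamini-Hochberg. On simulated data of 33323 clusters this recovered 77 of 100 log2 changes of 1 and 91 of 100 of 2, with 7 false calls. The number of arrays limits the precision. Members, gene lists and tests were chosen with earlier results of these data known. Named were all members, all called partner genes, up to 4 called genes of each other list (by size of difference) and the 3 nearest profiles of the 3 members with the smallest p. Itgb1, Pdgfa, Has2, Lama4, Cd6, Cdh5, Emcn and the T and B cell markers were named outside this rule, after their values were seen. The paper's methods take both groups from the same dishes, but the labels do not say that same-numbered samples share them. Deviations of same-numbered samples correlated at -0.012 to 0.028 over all clusters, which cannot show that pairing is absent. Numbers were not treated as pairs in the main test. Alternatives were median centring, quantile normalisation, leaving out dim clusters, a 1.5-fold prefilter, trended robust variance, array weights, the methods' two-sample test, the replicate number as a block, averaging a gene's clusters and removal of single arrays. No scan dates were used here.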

Additional observations from a re-analysis of the deposited data

Results flagged for a closer look

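Of 50 sets of 4 samples (each gene, ratio and list level in each group), 4 held a sample far from the other 3 by Dixon's ratio of gap to range; chance gives about 1 in 20. Alcam in beating replicate 2 was at 6.49 against 5.41 to 5.57 (ratio 0.855). In non-beating replicate 4 the log2 ratio of Thy1 to Eng was 3.85 against 5.16 to 5.41 (0.835), and that of Vcam1 to Alcam 2.37 against 3.09 to 3.21 (0.848). The mean level of the other stromal and adipose progenitor genes in non-beating replicate 1 was 5.74 against 5.56 to 5.58 (0.889).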

How the results depend on the processing

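Thy1 and Vcam1 kept direction and adjusted p under 0.05 in every limma setting, with the adjusted two-sample test and without each array in turn. At the paper's unadjusted p under 0.0001, in a two-sample test after a 1.5-fold prefilter, 0 of the members were called. Thy1 had an unadjusted p of 0.000549 in this test. Of the 7976 clusters kept, 195 were higher and 26 lower, with 13 list genes higher and 3 lower. With the same threshold and fold, the paper kept more genes, listed more in both directions and gave Thy1 as downregulated. The cause of this difference was not tested, so the 0 calls here do not show how the paper's own test placed Thy1. The adjusted two-sample test called 491 clusters higher and 375 lower, and 7 list genes lower. List genes called lower numbered 13, 22 with dim clusters left out and 28 with the 1.5-fold prefilter. Without 1 array at a time, 2 to 3 members were lower, 569 to 914 clusters higher and 438 to 1023 lower, and 18 to 22 list genes higher and 7 to 18 lower. The lowest counts of lower clusters came without non-beating replicates 2 and 3 (438 and 473; 569 and 575 higher), with 547 and 690 without replicates 1 and 4 and 631 without beating replicate 2. Without beating replicates 1 and 2 together, chosen after seeing the data, 619 clusters were lower. With the replicate number as a block 645 were lower, Pdgfra lost its call (adjusted p = 0.0599), Thy1 and Vcam1 kept theirs (0.0343 and 0.0324), and no other member's call changed, while Tgfbr3, Tgfb2, Prrx1, Mfap5, Adipoq and Cdh15 lost theirs and 9 macrophage markers were lower. Beating replicate 2 correlated best with non-beating replicate 4 (0.034). Paired by number, the ratios cannot pass (exact permutation p = 0.125 at the smallest).

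Under quantile normalisation the ratios of Thy1 to Nt5e, Pdgfra to Pdgfrb and Vcam1 to Alcam were -2.0, -1.20 and -1.36, and passed. Without 1 array at a time the ratios of Thy1 to Nt5e, Thy1 to Eng, Pdgfra to Pdgfrb and Vcam1 to Alcam lay from -2.28 to -1.91, -1.63 to -0.97, -1.44 to -0.99 and -1.59 to -1.18. Uncalled differences turned for Mcam (0.08 with quantile normalisation, 0.21 with array weights, -0.23 to 0.29 without 1 array at a time), for Alcam (-0.01 to 0.34 without 1 array at a time) and, without beating replicates 1 and 2, for Pdgfrb (0.17), Eng (0.24) and Mcam (0.58). Round pool values turned for Nt5e after median centring (-0.02 from the non-beating and -0.11 from the beating mean) and quantile normalisation (-0.09 and -0.18), for Alcam after quantile normalisation (0.26 and 0.00) and for Cd34 (0.21 from the beating mean). The causes were not tested. Taking the mean of all clusters of a gene changed no member, since each has 1. Signal over background limits Nt5e in all samples and Pdgfra in the round pool.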

Other observations

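Outside the rule for naming genes, and chosen after their values were seen, the 3 profiles nearest to Eng over the 8 arrays were those of Adgrl4, Epas1 and Flt1, genes known from endothelium (RMS differences 0.229, 0.258 and 0.265 on the log2 scale). Their differences, beating minus non-beating, were -0.81, -0.60 and -0.82 (limma adjusted p = 0.423, 0.462 and 0.348). The T cell receptor component Cd3g was at 4.45, 6.41, 3.52 and 4.74 in the beating and 2.92, 2.85, 2.63 and 2.70 in the non-beating samples (limma adjusted p = 0.0670), while Cd3d was at 1.93 to 2.54 in the beating samples, not above the receptor level.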
